A study of Mus musculus with 5 samples.

Results

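Mcm2, Mcm3, Mcm4, Mcm5, Mcm6, Mcm7, Mcm10, Cdt1, Cdc6 and Gmnn, the genes of the MCM helicase and of origin licensing, were chosen by gene symbol. All 10 of 10 were measured among 17325 genes, each by 1 probe set. Total RNA of pro-B cells, isolated by flow sorting of bone marrow at 9 months of age, was hybridised to 5 Affymetrix arrays, 2 of *Mef2c*-deficient (Vav-Cre *Mef2c* fl/fl) and 3 of control pro-B cells. Vav-Cre acts throughout the haematopoietic system, so *Mef2c* was deleted in all blood lineages of these mice and not only in B cells. Control mice of matching age carried floxed *Mef2c* on both alleles (fl/fl) or on 1 allele (fl/+), the last with or without Vav-Cre, so some may have had 1 deleted allele. The sources used here do not give the genotype behind each control array, nor whether an array held 1 mouse or a pool. The p-values therefore measure only the spread between these arrays, and 2 arrays against 3 limit the precision of every value.

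Replication origins are licensed in G1 phase, when the origin recognition complex, CDC6 and CDT1 load the ring of MCM2 to MCM7 onto DNA as an inactive double helicase. In S phase CDC45, the GINS complex and MCM10 turn the ring into the moving replicative helicase, while geminin binding and proteolysis of CDT1 prevent a second round of loading. Pro-B cells divide vigorously under interleukin 7, and most of these genes are transcribed mainly in dividing cells under the control of E2F factors.

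The deposited values were made by robust multiarray averaging (RMA) and are linear intensities. Their base appears to be e where RMA uses 2, since they reach 2322555, far above the ceiling of a 16-bit scanner. A deposited fold of 2 is then a 1.62-fold difference in signal. Values, log2 fold changes and ratios between arrays below are on the deposited scale, and a fold in signal is named as such. A gene was called lower or higher at a deposited fold of at least 2 and an unadjusted limma p of at most 0.05. *Mef2c* itself had values of 7379 and 6219 in *Mef2c*-deficient pro-B cells, against 14006, 20854 and 17219.7 in control pro-B cells. Both *Mef2c*-deficient arrays were thus below every control array, with a log2 fold change of −1.34 (standard error 0.29), or 1.90-fold lower in signal. *Mef2c* lay in the brightest decile of genes by mean level. There 62.6% of genes had both *Mef2c*-deficient arrays below every control array, 32.8% were called lower, and the median log2 fold change was −0.91. The position of the *Mef2c* probe set against the deleted exon was not known here.

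All 10 licensing genes had lower values on both *Mef2c*-deficient arrays than on any of the 3 control arrays. Of all genes, 28.4% showed that pattern. In *Mef2c*-deficient pro-B cells 9 of the 10 genes fell and 0 rose, where 16.7% of all genes were called lower and 9.65% higher. *Mcm7* was the gene that did not pass. At a fold of 2 in signal 6 of the 10 were called lower, where 10.6% of all genes were. The median log2 fold change of the 10 genes was −1.61, against 0.04 over all genes, and the genes ranged between −2.11 (*Mcm3*) and −1.12 (*Mcm10*). In signal the median was 2.17-fold lower. No gene on the arrays reached an adjusted p of 0.05 by limma (0 of 17325, where 5593 had an unadjusted p of at most 0.05). The adjusted p of the 10 genes was 0.0895 to 0.177. In a bulk sample, fewer dividing cells and less RNA of these genes per cell cannot be told apart.

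**Figure D1:**
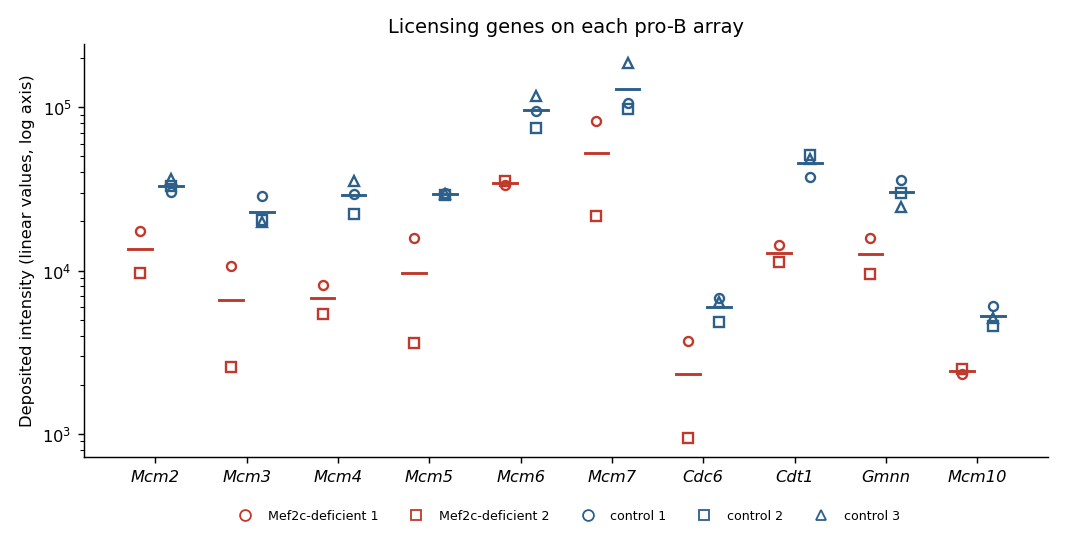
Deposited intensity (vertical log axis) of the 10 licensing genes on each array, with *Mef2c*-deficient arrays in red on the left of each gene and control arrays in blue on the right. Points are single arrays and bars are group means. Every red point lies below every blue point of its gene, and the red points of *Mcm3*, *Mcm5*, *Mcm7* and *Cdc6* lie far apart.

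Promoter sequence was available in the RefSeq table (GRCm38.p6) for 8 of the 10 genes, 9 promoters in all, and was read over the 250 bases before each transcript start. E2F factors bind sites of the form searched for here, the words TTTCGCGC, TTTGGCGC, TTTCCCGC and TTTGCCGC on both strands, overlapping matches included. *Mcm5*, *Mcm6*, *Mcm7* and *Cdc6* held such a word, 4 of 8 genes. By promoter this was 4 of 9, against 1.86% of 32851 promoters of the same length. *Mcm7* has another promoter, which held no such word. The stretches are shown because they carry the matched words, 5′ to 3′ on the strand of the gene, with each match in capitals.
Mcm5 (plus strand, chr8:75109316-75109407): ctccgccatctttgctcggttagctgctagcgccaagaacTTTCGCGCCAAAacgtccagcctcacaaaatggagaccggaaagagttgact
Mcm6 (minus strand, chr1:128359706-128359855): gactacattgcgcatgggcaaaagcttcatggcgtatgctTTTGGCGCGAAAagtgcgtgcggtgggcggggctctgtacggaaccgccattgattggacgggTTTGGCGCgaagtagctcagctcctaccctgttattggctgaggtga
Cdc6 (plus strand, chr11:98908002-98908031): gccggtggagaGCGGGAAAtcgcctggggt
Mcm7 (minus strand, chr5:138172030-138172059): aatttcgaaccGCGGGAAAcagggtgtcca

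*Mcm5* held 2 overlapping matches, and *Mcm6* held 3, of which the first 2 overlap. Both stretches lie upstream of the annotated gene. The *Cdc6* site lies at positions −138 to −131 from the start of its transcript but within the annotated span of the gene, and the *Mcm7* site, at −165 to −158, lies within the spans of *Mcm7* and of its neighbour *Ap4m1*. The CCAAT box, the site of NF-Y, was found in 6 of the 8 genes and 7 of the 9 promoters, against 33.8% of all promoters. The MEF2 consensus was found in 0 of the 8 genes and in 2.92% of all promoters. A match says only that these letters lie in the window.

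The MCM2 to MCM7 proteins form the hexameric ring that unwinds DNA. Of the 6 genes that encode it 5 were called lower. All lay in the brightest decile of genes by mean level, where 32.8% of genes were called lower. *Mcm4* (probe set 1436708_x_at, chr16:15623897-15637400) had values of 8208 and 5441 in *Mef2c*-deficient pro-B cells, against 29505, 22369 and 35382 in control pro-B cells. Its mean was 6825 ± 1957 (SD, n = 2) in *Mef2c*-deficient and 29085 ± 6517 (SD, n = 3) in control pro-B cells. The groups were well separated, since the higher *Mef2c*-deficient array was at 0.367 of the lowest control array. The log2 fold change of *Mcm4* was −2.10 (standard error 0.34, limma adjusted p = 0.0895), or 2.74-fold lower in signal. *Mcm6* (1438852_x_at, chr1:128331575-128359705) had 33518 and 35334 in *Mef2c*-deficient, against 95009.6, 74956 and 117904 in control pro-B cells. Its *Mef2c*-deficient arrays were nearly equal, and the log2 fold change was −1.45 (standard error 0.29, adjusted p = 0.0907). *Mcm2* (1448777_at, chr6:88883474-88898780) had 17592 and 9656 in *Mef2c*-deficient, against 30098, 33032 and 36437 in control pro-B cells. Its log2 fold change was −1.34 (standard error 0.35, limma adjusted p = 0.0993), or 1.91-fold lower in signal. These 3 subunit genes had both *Mef2c*-deficient arrays within 1.82-fold of each other.

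The other subunits of the ring were much lower on *Mef2c*-deficient replicate 2 than on replicate 1. *Mcm3* (1426652_at, chr1:20802966-20820312) had 10675 and 2563 in *Mef2c*-deficient pro-B cells, against 28748, 20522 and 19710.4 in control pro-B cells. It showed the largest decrease of the 10 genes, −2.11 on the log2 scale, with a standard error of 0.66 (adjusted p = 0.118). *Mcm5* (1415945_at, chr8:75109468-75128439) had 15829.7 and 3629 in *Mef2c*-deficient, against 30014, 29187 and 29453 in control pro-B cells. Its control arrays differed by 1.03-fold and its *Mef2c*-deficient arrays by 4.36-fold, so the spread lay on the *Mef2c*-deficient side. Its log2 fold change was −1.96 (standard error 0.65, adjusted p = 0.127). *Mcm7* (1439269_x_at, chr5:138164583-138172111) had 82772 and 21737 in *Mef2c*-deficient, against 105505, 97771 and 187358 in control pro-B cells. One of its *Mef2c*-deficient arrays was close to the control range, at 0.847 of the lowest control array. Its log2 fold change of −1.55 (standard error 0.67) did not pass, since its unadjusted limma p was 0.067 (adjusted p = 0.177). The *Mcm4*, *Mcm6* and *Mcm7* probe sets are of the x type, which can share probes with other transcripts.

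CDT1 and CDC6 are the loaders that bring the ring to the origin. *Cdt1* (1424143_a_at, chr8:122568015-122573130) had values of 14437 and 11267 in *Mef2c*-deficient pro-B cells, against 37692, 51034 and 48477 in control pro-B cells. Both groups were tight and far apart, with means of 12852 ± 2242 (SD, n = 2) in *Mef2c*-deficient and 45734 ± 7081 (SD, n = 3) in control pro-B cells. *Cdt1* had the smallest unadjusted p of the 10 genes and a log2 fold change of −1.83 (standard error 0.28, limma adjusted p = 0.0895), or 2.41-fold lower in signal. *Cdc6* (1417019_a_at, chr11:98907709-98923942), which encodes the ATPase that recruits CDT1 and the ring, had 3726 and 942 in *Mef2c*-deficient, against 6819, 4839.7 and 6406 in control pro-B cells. Its *Mef2c*-deficient arrays differed by 3.96-fold, and the log2 fold change was −1.67 (standard error 0.63, adjusted p = 0.149).

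*Gmnn* encodes geminin, the inhibitor of CDT1. It fell together with its target (1417506_at, chr13:24751845-24761937), with values of 15807.5 and 9537 in *Mef2c*-deficient pro-B cells, against 35898, 30011 and 24532 in control pro-B cells. *Gmnn* had a log2 fold change of −1.28 (standard error 0.35, adjusted p = 0.105), or 1.85-fold lower in signal. *Mcm10* (1433408_a_at, chr2:4990724-5012791), which is not a subunit of the ring and helps to activate it, had 2329.8 and 2499.8 in *Mef2c*-deficient, against 6114, 4573 and 5132 in control pro-B cells. Its arrays agreed closely within each group and it showed the smallest decrease of the 10 genes, −1.12 on the log2 scale (standard error 0.26, adjusted p = 0.0938), or 1.71-fold lower in signal.

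The *Mef2c*-deficient arrays differed more from each other than the control arrays did in the median profile of the 10 genes, but not for *Mcm4*, *Mcm6*, *Mcm10* and *Cdt1*. The median log2 deviation of the genes from their own mean over the 5 arrays was −0.39 on *Mef2c*-deficient replicate 1 and −1.42 on replicate 2, against 0.73, 0.50 and 0.78 on the control arrays. *Mef2c*-deficient replicate 2 was below replicate 1 for 8 of the 10 genes, where 59.1% of all genes and 53.3% of the brightest decile of genes had that order. *Mcm6* and *Mcm10* had the opposite order, at a replicate 1 over replicate 2 ratio of 0.949 and 0.932. The ratio exceeded 2 for *Mcm3*, *Mcm5*, *Mcm7* and *Cdc6*, and was 1.28 to 1.82 for the 4 genes between. With replicate 2 left out, the median log2 fold change of the 10 genes was −0.9999, and with replicate 1 left out it was −2.20. Each of these fits rests on a single *Mef2c*-deficient array, so only the size of the change is given here. Without replicate 2, *Mcm2*, *Mcm5*, *Mcm7*, *Cdc6* and *Gmnn* stood at −0.91, −0.90, −0.59, −0.68 and −0.91. The other genes lay between −1.80 (*Mcm4*) and −1.09 (*Mcm3*).

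**Figure D2:**
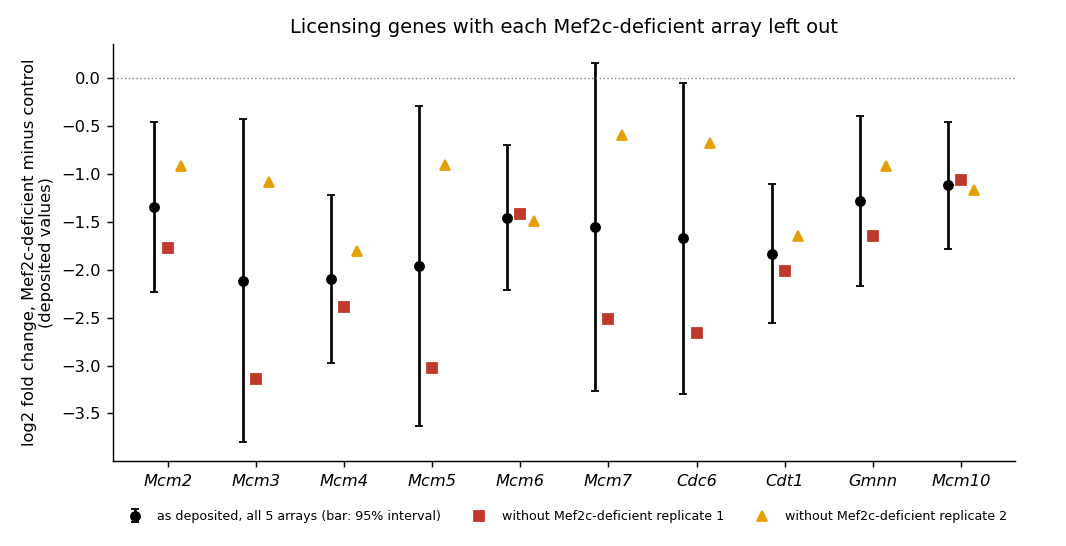
Log2 fold change, *Mef2c*-deficient minus control (vertical axis), of each licensing gene with all 5 arrays (black, bars are 95% intervals) and with *Mef2c*-deficient replicate 1 (red squares) or replicate 2 (orange triangles) left out. *Mcm6* and *Mcm10* hardly moved, at −1.42 and −1.07 without replicate 1 and −1.49 and −1.17 without replicate 2, while *Mcm5* stood at −3.03 and −0.90.

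*Mef2c*-deficient replicate 2 also stood apart in markers of other cell types. Of 12 markers of T and NK cells, 7 were higher on it than on any other array, and their summed value was 7557 and 48541 in *Mef2c*-deficient pro-B cells, against 15247 to 22176 in control pro-B cells. *Cd247*, *Lat*, *Gata3*, *Klrd1* and *Gzma* were the other 5. *Cd3e*, a subunit of the T-cell receptor complex named for its large difference after the values were seen, had 13843 on this array and 366 on replicate 1, against 232 to 387 in control pro-B cells. The summed value of 5 measured erythroid markers was 1534 and 5120.4 in *Mef2c*-deficient, against 806 to 929.9 in control pro-B cells. Of these 5, 3 were highest on replicate 2, and *Epor* and *Klf1* were not. Of the 9 measured B-lineage markers, 3 were lowest on replicate 2, the cytokine receptor gene *Il7r*, *Ebf1*, a B-lineage transcription factor gene, and *Blnk*, an adaptor gene of B-cell receptor signalling. *Blnk*, the lowest of them relative to the other arrays, had 25010.0 and 2661 in *Mef2c*-deficient, against 18899 to 41783 in control pro-B cells. Other B-lineage markers did not share this order. *Cd79a*, a signalling subunit of the B-cell receptor, had 231011 and 250654 in *Mef2c*-deficient, against 153021 to 257531 in control pro-B cells, and *Dntt* and *Igll1* were lowest on replicate 1. Granulocyte and macrophage markers, 12 genes, summed to 2503100 and 5716740 in *Mef2c*-deficient pro-B cells, against 2323360 to 4843430 in control pro-B cells. The 9 measured B-lineage markers summed to 546314 and 491117 in *Mef2c*-deficient, against 388765 to 993861 in control pro-B cells, less on every array. Of the 12 granulocyte and macrophage markers, 6 were highest on replicate 2. *Mpo*, *Elane*, *Prtn3*, *S100a9* and *Csf1r* were highest on control replicate 2, and *C1qa* on *Mef2c*-deficient replicate 1. The granulocyte genes *S100a8* and *S100a9* stood at percentiles 99.88 to 100 of all probe sets over the arrays. *Csf1r*, *C1qa* and *C1qb* were dimmer, at percentiles 36.4 to 87.4. Of 6 measured markers each of plasmacytoid dendritic cells and of mature B and plasma cells, 3 were highest on replicate 2. The sort gate for pro-B cells was B220+IgM-CD43+CD24+, and T cells, erythroid cells and granulocytes generally lack B220. The part of these markers in the values of the licensing genes was not tested.

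On *Mef2c*-deficient replicate 1 the hybridisation controls stood apart instead. These 14 probe sets for bacterial transcripts, added in a fixed amount, had a median of 429609 and 112407 on the *Mef2c*-deficient arrays, against 32449 to 101409 on the control arrays. The part of this difference in the result was not tested.

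The licensing genes are among the brightest on the arrays, and bright genes were mostly lower in *Mef2c*-deficient pro-B cells. On no array was a licensing gene below percentile 74.6 of all probe sets. With genes divided into deciles by mean level, 8 licensing genes were in the brightest decile and *Mcm10* and *Cdc6* in the ninth. In the brightest decile 32.8% of genes were called lower and 62.6% had both *Mef2c*-deficient arrays below all control arrays. In the ninth these shares were 40.9% and 65.4%. The median log2 fold change was −0.91 in the brightest and −1.10 in the ninth decile, so genes of this brightness were in general lower. All 10 licensing genes lay below the median of their own decile, by a median of 0.61 on the log2 scale. *Mcm3*, *Mcm4*, *Mcm5* and *Cdt1* lay at percentiles 3.52, 3.69, 5.71 and 8.19 of the log2 fold changes of the brightest decile. *Mcm10* was at percentile 48.8 of the ninth decile, at its median.

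**Figure D3:**
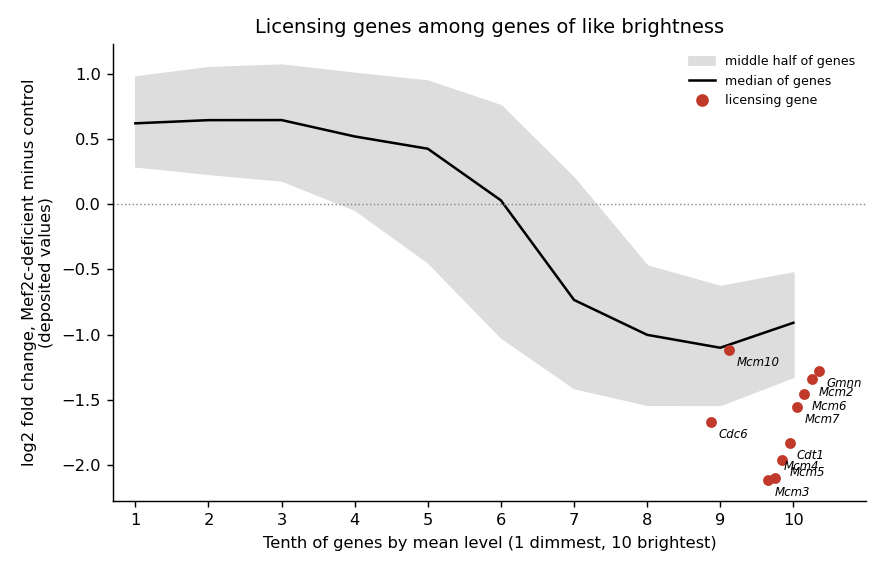
Log2 fold change, *Mef2c*-deficient minus control (vertical axis), by decile of mean level (horizontal axis). The line is the median of all genes in a decile, the band their middle 2 quartiles, and red points are the licensing genes, spread sideways within their decile. The line lies at −1.10 in the ninth and −0.91 in the brightest decile, with *Mcm10* on the line and the other 9 genes below it.

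How many licensing genes were called lower depended on how the arrays were scaled. As deposited, the upper quartile of all values was 1074 and 973 on the *Mef2c*-deficient arrays, against 1488, 1475 and 1859 on the control arrays, and the median 238 and 204, against 188, 193 and 182. After a further quantile normalization of the deposited values, and after cyclic loess, *Mcm4* alone of the 10 genes was called lower, with a median log2 fold change of −0.95 and −0.72 over the 10 genes. These scalings gave 1484 lower and 1374 higher genes, and 1447 lower and 1170 higher genes, against 2897 lower and 1671 higher genes as deposited. With each array centred on its median, all 10 were called lower, with 4176 lower and 1067 higher genes and the median of all genes at −0.19. With arrays centred on housekeeping genes, *Mcm4* and *Cdt1* were called lower, at −1.32 and −1.06 on the log2 scale. That scaling moved the median of all genes to 0.82 and gave 715 lower and 7105 higher genes, so each licensing gene lay further below the median gene than below 0. The log2 fold change was negative for each of the 10 genes under each of these scalings. It was least so for *Mcm10*, *Gmnn* and *Mcm2*, at −0.16, −0.30 and −0.37 after cyclic loess.

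**Figure D4:**
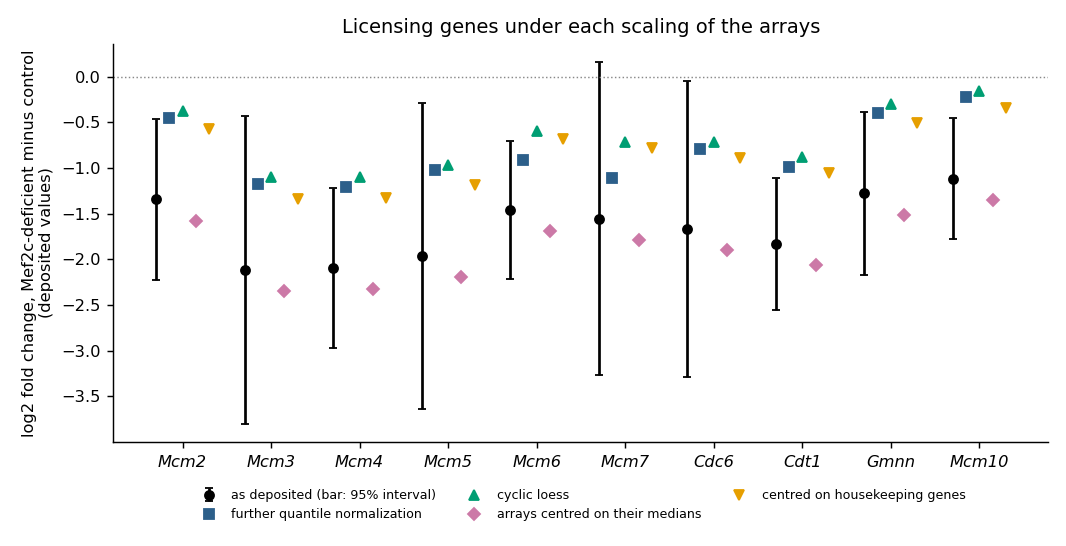
Log2 fold change, *Mef2c*-deficient minus control (vertical axis), of each licensing gene as deposited (black, bars are 95% intervals) and under 4 other scalings of the arrays (coloured symbols). All points lie below 0. Quantile normalization, cyclic loess and housekeeping centring moved each gene toward 0, and centring on array medians moved each gene away from it.

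Some genes that act just before and after ring loading fell too, and 0 were called higher in any of the lists that follow. In the origin recognition complex, its partner *Lrwd1* included, 4 of 7 genes fell, with a median log2 fold change of −1.91. Against these counts, 16.7% of all genes were called lower, and 15.6%, 25.3%, 34.1%, 40.9% and 32.8% of genes in deciles 6 to 10 of mean level, where all genes of these lists lay. They were *Orc1* and *Orc2*, which encode subunits of the complex, at −2.0001 and −2.33, *Orc4*, another subunit, at −1.91, and *Lrwd1*, which holds the complex on chromatin, at −1.93. *Orc3*, *Orc5* and *Orc6* did not pass. Of 12 genes of helicase activation 5 fell, with a median of −1.45, a count near the 40.9% of all genes called lower in the ninth decile. *Ticrr*, which brings CDC45 to the ring, stood at −1.74, the fork protein gene *Wdhd1* at −1.85 and the GINS subunit genes *Gins3* and *Gins4* at −1.44 and −1.24. *Gins1*, named here after its value was seen, was the 1 gene of these lists with a positive log2 fold change, 0.43, which did not pass.

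Proteolysis removes CDT1 once replication starts, and 4 of 7 measured genes of CDT1 turnover fell, with a median of −1.54, where 16.7% of all genes and 32.8% of the brightest decile were called lower. The largest decrease was that of *Dtl*, the adaptor through which the CUL4 ligase recognises CDT1 on DNA-bound PCNA, at −3.08. *Cul4b* and *Cul4a*, the scaffolds of that ligase, stood at −1.81 and −1.54, and *Cul1*, the scaffold of the ligase with SKP2, at −1.60. *Pcna*, the sliding clamp, also named after its value was seen, stood at −0.38 and did not pass. *Skp1a* was not among the measured genes. Of 4 further genes with an MCM name, in deciles with 15.6% to 40.9% of genes called lower, 2 fell, *Mcm8*, of a helicase of recombination, at −1.37 and *Mcm3ap*, which encodes an mRNA export factor with an MCM3-acetylating part, at −2.16. Of 7 measured proliferation markers 2 fell, *Tk1*, a thymidine kinase, and *Birc5*, a mitotic protein gene, at −1.18 and −1.14. This count was near the 32.8% of all genes called lower in the brightest decile, which held 6 of the 7 markers. Their summed value was 162207 and 76960.0 in *Mef2c*-deficient pro-B cells, against 193017 to 250511 in control pro-B cells, lowest on replicate 2, as were 8 of the 10 licensing genes. Of 10 measured housekeeping genes, in deciles with 32.8% to 40.9% of genes called lower, 5 were called lower as well, with a median of −0.98.

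**Figure D5:**
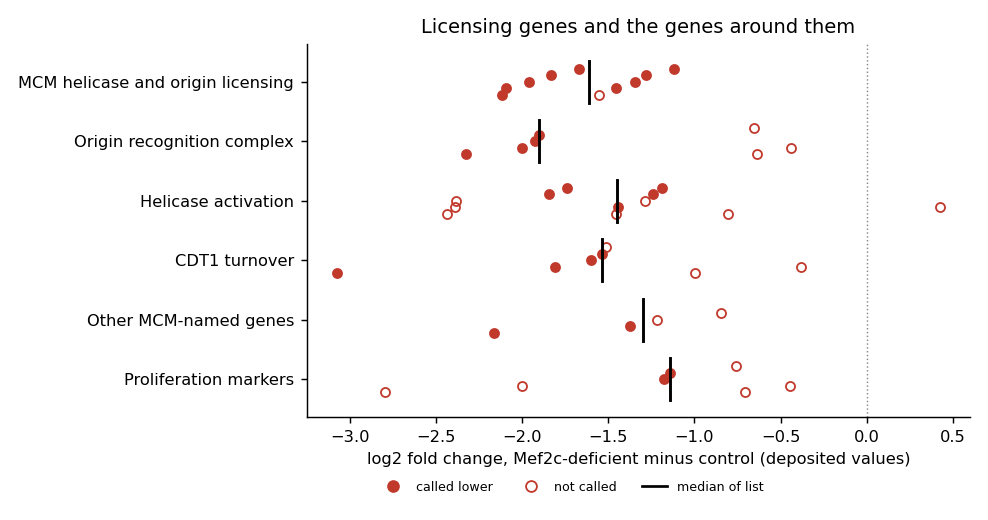
Log2 fold change, *Mef2c*-deficient minus control (horizontal axis), of single genes in the licensing list and 5 lists around it. Filled points were called lower, open points were not called, and vertical bars are list medians. The medians lie between −1.91 (origin recognition complex) and −1.14 (proliferation markers), and 1 point, *Gins1*, lies above 0.

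The profile of the licensing genes over the 5 arrays was shared by many others. Likeness was measured as the mean absolute difference between a gene's log2 deviations from its own mean and the mean deviations of the 10 genes, over the 5 arrays and 8568 genes outside the lists used here and at or above the median level. The closest were *Pak1ip1*, a regulator of ribosome assembly, at 0.020, *Gabpb2*, a subunit of the GA-binding protein, at 0.052, *2810025M15Rik* and *Pspc1*, a paraspeckle component, at 0.059 each, and *Ppp2r1a*, the scaffold of protein phosphatase 2A, at 0.061. *Mcm2* was the licensing gene nearest to the mean profile, at 0.15, and 126 of the 8568 genes were nearer still. *Mcm7* was the farthest, at 0.38.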

How the data were processed

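The authors hybridised RNA of sorted pro-B cells (B220+IgM-CD43+CD24+) to Affymetrix Mouse Genome arrays, and background adjusted, normalized and summarised them by RMA per the labels. The deposited values are linear intensities of 23835 probe sets, 17623 with 1 gene symbol, 516 with several and 5696 with none. A gene with several probe sets was represented by the brightest, which gave 17325 genes. Log2 values were fitted with limma 3.58.1 (lmFit, eBayes; R 4.3.3), *Mef2c*-deficient minus control, with Benjamini-Hochberg adjustment over all genes, and the procedure was tested on simulated data. Calls used the study's fold and p thresholds, the fold applied to the deposited values. All 10 genes are named, with *Mef2c*, up to 4 called genes with the largest change per list around them, and the 5 genes of nearest profile. Members and lists were chosen with earlier results of these data known, so no test over a list was made. Alternatives were other scalings, filters, tests, thresholds, a replicate block and each array left out. Coordinates are of GRCm38.p6.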

Additional observations from a re-analysis of the deposited data

How the results depend on the processing

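All 10 licensing genes kept a negative log2 fold change under each of the 16 alternatives, and 0 were called higher under any. As deposited, 9 were called lower, 17 genes were called lower in the 5 lists around them, and the median log2 fold change of the 10 genes was −1.61. These 3 values became 1, 5 and −0.95 after a further quantile normalization. Cyclic loess gave 1, 4 and −0.72, and centring on housekeeping genes gave 2, 7 and −0.84. Of all genes, 16.7% were called lower as deposited, and 8.57%, 8.35% and 4.13% under these scalings, in that order. Centring on array medians gave 27 genes in the lists and 24.1% of all genes. An ordinary unpaired test per gene gave 11 and 9.99%. With an adjusted p of 0.05 as the threshold, 0 licensing genes and 0 list genes were called. Leaving out single arrays gave a median between −2.20 and −0.9999. Without control replicate 1, 5 licensing genes, 11 list genes and 11.2% of all genes were called lower. Without control replicate 2 these values were 6, 11 and 12.5%. Without control replicate 3 they were 6, 15 and 11.6%. A lone *Mef2c*-deficient array was assumed to vary like the control arrays. The replicate block left 5 licensing genes called lower, with 11.2% of all genes. The arrays share only a number (the correlation of deviations was 0.12 for pair 1 and −0.01 for pair 2), and 1 residual degree of freedom was left. At a fold of 2 in signal 6 licensing genes were called lower, with 10.6% of all genes. *Mcm4* kept its call in 15 alternatives, *Cdt1* in 13, *Mcm6* in 12 and *Mcm10* in 10. *Mcm2* and *Gmnn* kept theirs in 9, *Mcm3* in 8, and *Mcm5* and *Cdc6* in 6. These counts are out of 16 alternatives, the fits with a lone *Mef2c*-deficient array included. The causes of these changes were not tested. The number of arrays limits the precision.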
